A study of Mus musculus with 4 samples.

Results

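The genes described here make, sense and move sterols and fatty acids. They were listed by name as 36 symbols, by pathway and not by a threshold on these arrays, though with earlier results of these data known. Sc4mol is the older symbol of Msmo1, so the list held 35 genes. Of these, 34 had a probe set on the arrays whose platform annotation named exactly 1 gene, out of 18193 genes so named. All 34 passed a filter on dim probe sets and were among the 13271 genes tested, and Acat2 was not analysed here. They fall into 7 enzymes of the mevalonate and isoprenoid steps, 11 enzymes from squalene to cholesterol, 5 regulators, 3 sterol transport genes and 8 fatty acid enzymes. The first pair of groups, 18 enzymes, is called the sterol arm, and the 8 fatty acid enzymes are called the fatty acid arm.

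The cells were primary dermal fibroblasts from newborn mice (Mus musculus) at postnatal day 1, either adam9 -/- (knockout, KO; n = 2 isolations) or adam9 +/+ (wild type, WT; n = 2). ADAM9 is a membrane-anchored metalloprotease that sheds proteins from the cell surface. From each isolation the cells were plated at equal number in square plates of 10 cm, kept without any treatment for 48 h and measured with 1 array each. The question addressed was which genes differ constitutively without ADAM9. The labels do not give the strain, the number of animals behind an isolation, or the sex. How the knockout allele was made is likewise not given.

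Cells make cholesterol from acetyl-CoA through mevalonate, farnesyl diphosphate and squalene. The genes of this route are switched together by the transcription factors SREBP-1 and SREBP-2 (encoded by Srebf1 and Srebf2). When membrane sterol is low, SCAP escorts the SREBPs to the Golgi for cleavage, and when it is high the INSIG proteins hold SCAP back in the endoplasmic reticulum. SREBP-1 also drives fatty acid synthesis, while sterol excess activates the LXR receptors, whose targets include the efflux pumps ABCA1 and ABCG1. Fibroblasts are the cells in which much of this feedback was worked out.

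Promoter windows are shown for the members with the largest differences that had one, Idi1, Cyp51 and Sc5d of the sterol arm and Elovl6 of the fatty acid arm, and for Hmgcs1 and Insig1, 2 classical SREBP targets added after their values were seen. Each window runs from 250 bases before to 50 bases after the gene start and comes from RefSeq (build GRCm38.p6), read 5′ to 3′ on the gene's strand. Capitals mark, on either strand, the sterol regulatory element TCACNCCAC, the NF-Y box CCAAT, the Sp1 box GGGCGG and the E-box TCACGTG.
Hmgcs1, chr13:119690101-119690400, plus strand: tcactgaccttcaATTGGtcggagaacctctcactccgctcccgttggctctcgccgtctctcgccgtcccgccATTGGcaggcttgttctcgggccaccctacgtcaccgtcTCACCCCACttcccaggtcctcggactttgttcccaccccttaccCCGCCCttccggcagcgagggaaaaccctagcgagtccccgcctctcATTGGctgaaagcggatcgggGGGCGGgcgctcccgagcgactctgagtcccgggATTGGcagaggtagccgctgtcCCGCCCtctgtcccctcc
Idi1, chr13:8885356-8885655, plus strand: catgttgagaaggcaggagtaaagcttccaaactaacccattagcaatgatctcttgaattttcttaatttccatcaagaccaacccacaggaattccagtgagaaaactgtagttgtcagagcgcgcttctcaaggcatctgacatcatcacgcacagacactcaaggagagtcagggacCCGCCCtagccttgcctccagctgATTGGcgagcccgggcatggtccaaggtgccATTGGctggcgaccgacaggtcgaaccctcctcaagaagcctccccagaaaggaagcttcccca
Cyp51, chr5:4104648-4104947, minus strand: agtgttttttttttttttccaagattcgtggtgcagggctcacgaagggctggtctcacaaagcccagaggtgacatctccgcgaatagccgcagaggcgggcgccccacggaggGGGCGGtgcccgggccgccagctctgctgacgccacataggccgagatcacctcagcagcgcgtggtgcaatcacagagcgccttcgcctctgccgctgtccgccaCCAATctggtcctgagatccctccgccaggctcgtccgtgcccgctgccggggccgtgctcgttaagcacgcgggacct
Sc5d, chr9:42264251-42264550, minus strand: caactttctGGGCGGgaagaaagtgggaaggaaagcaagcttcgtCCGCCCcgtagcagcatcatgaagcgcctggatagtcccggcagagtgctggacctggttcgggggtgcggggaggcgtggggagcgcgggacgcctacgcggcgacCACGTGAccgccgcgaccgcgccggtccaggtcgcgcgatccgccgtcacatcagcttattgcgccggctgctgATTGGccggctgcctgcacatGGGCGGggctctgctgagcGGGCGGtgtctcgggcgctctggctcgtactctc
Insig1, chr5:28071162-28071461, plus strand: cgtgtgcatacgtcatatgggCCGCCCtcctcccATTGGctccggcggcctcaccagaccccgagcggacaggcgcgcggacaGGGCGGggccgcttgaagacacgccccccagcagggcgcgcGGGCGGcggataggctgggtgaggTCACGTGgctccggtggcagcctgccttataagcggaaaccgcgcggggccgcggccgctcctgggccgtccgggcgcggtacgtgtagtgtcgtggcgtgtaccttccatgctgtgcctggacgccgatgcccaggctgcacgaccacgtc
Elovl6, chr3:129532136-129532435, plus strand: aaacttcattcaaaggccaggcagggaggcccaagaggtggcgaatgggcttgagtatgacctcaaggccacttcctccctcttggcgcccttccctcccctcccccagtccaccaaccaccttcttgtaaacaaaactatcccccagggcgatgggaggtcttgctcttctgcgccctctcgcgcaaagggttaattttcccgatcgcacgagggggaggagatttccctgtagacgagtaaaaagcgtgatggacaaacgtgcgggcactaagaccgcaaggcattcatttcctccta

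The windows of the sterol arm shared the CCAAT box. A window was at hand for 26 of the 34 members, and no motif contains another. CCAAT stood in the windows of all 15 sterol arm genes that had one and of 2 of 5 fatty acid genes (Fasn and Acly), against 42.5% of the 10666 genes tested on the arrays that had a window and 41.1% of all 27025 genes. The Sp1 box stood in 13 of 15 and in 2 of 5, against 66.6% of the genes tested. The sterol regulatory element in the spelling searched was found in 1 member, Hmgcs1, against 1.47% of the genes tested, and the E-box in 3 members, Hsd17b7, Sc5d and Insig1, against 6.71%. The Elovl6 window held none of the 4 motifs. A match is a string of letters and was not tested as a binding site.

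The arrays matched their labels in the gene that was deleted. Adam9 had log2 values of 8.33 and 8.55 in the KO isolations, against 11.58 and 11.70 in the WT isolations. It fell by 3.20 on the log2 scale (SE 0.147, limma adjusted p = 0.0242). That call was lost with any 1 array left out (adjusted p = 0.126 to 0.244). Whether its probe set lies in the deleted part is not stated by the labels. All 14 dermal fibroblast markers were measured, from 6.79 (Fbln1 in WT isolation 2) to 14.13 (Col3a1 in WT isolation 1). Their linear values summed to 99400 and 97280 in KO and to 98250 and 74160 in WT, so WT isolation 2 stood low. The gap was widest in Lum, at 12.81 and 12.78 in KO and at 12.38 and 10.13 in WT.

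Sex-linked, proliferation, macrophage and some epithelial genes also differed between the arrays, and their part in the results below was not tested. Xist was at 10.38 and 10.40 in KO and at 4.29 and 4.32 in WT, and Eif2s3y at 2.75 and 2.67 in KO and at 9.19 and 9.31 in WT, so sex-linked expression and genotype cannot be told apart. All 14 proliferation genes tested were higher in both KO arrays, with a median difference of 2.14. The 16 macrophage and other leukocyte markers summed, on the linear scale, to 636 and 552 in KO and to 12060 and 783 in WT, which sets WT isolation 1 apart. In bulk RNA, fewer cells of a type and less RNA per cell cannot be told apart. The 9 adipocyte markers measured summed to 8855 and 4717 in KO and to 3344 and 2045 in WT. Adipoq, Cidec and Lep stood at 2.36 to 3.06 on the 4 arrays, near the lower end of all values. Fabp4 was at 7.72 and 8.50 in KO and at 7.58 and 7.43 in WT, without overlap, though its 4 probe sets differed by -0.22 to 0.60. Pparg was at 6.51 and 4.96 in KO and at 5.36 and 4.98 in WT, with KO isolation 1 highest. Most of that sum was Lpl, which is not limited to fat cells, at 13.04 and 12.04 in KO and at 11.55 and 10.75 in WT. The 10 keratinocyte markers summed to 372 and 349 in KO and to 631 and 611 in WT. Perp was at 5.28 and 3.04 in KO and at 8.10 and 7.90 in WT and Dsp at 3.06 and 3.55 in KO and at 4.84 and 6.75 in WT, while Krt5, Krt14 and Cdh1 stood under 4.85 on every array. Krt10 went the other way, at 7.17 and 7.02 in KO and at 6.92 and 6.49 in WT. Of the 5 keratinocyte markers tested, 2 were positive and 3 negative, with a median difference of -0.0063. Marker and proliferation lists were those of the design, chosen with earlier results known.

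None of the 34 genes passed the limma test at an adjusted p under 0.05, which 0.0678% of all genes tested did. The smallest adjusted p was 0.0864, that of Stard4. With no adjustment 13 members had a limma p under 0.05. Of these, 12 were higher in KO (35.3% of members, against 6.18% of all genes tested) and 1 was lower (2.94%, against 5.24%). Both KO arrays lay above both WT arrays for 20 members (58.8%, against 23.0% of all genes tested) and below them for 3 (8.82%, against 22.0%). The difference was positive for 28 of 34 members, or 82.4%, against 50.5% of all genes tested. Members share regulators and arrays and are not independent of each other, so these counts are a description. With 2 arrays per genotype the number of arrays limits the precision.

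**Figure D1:**
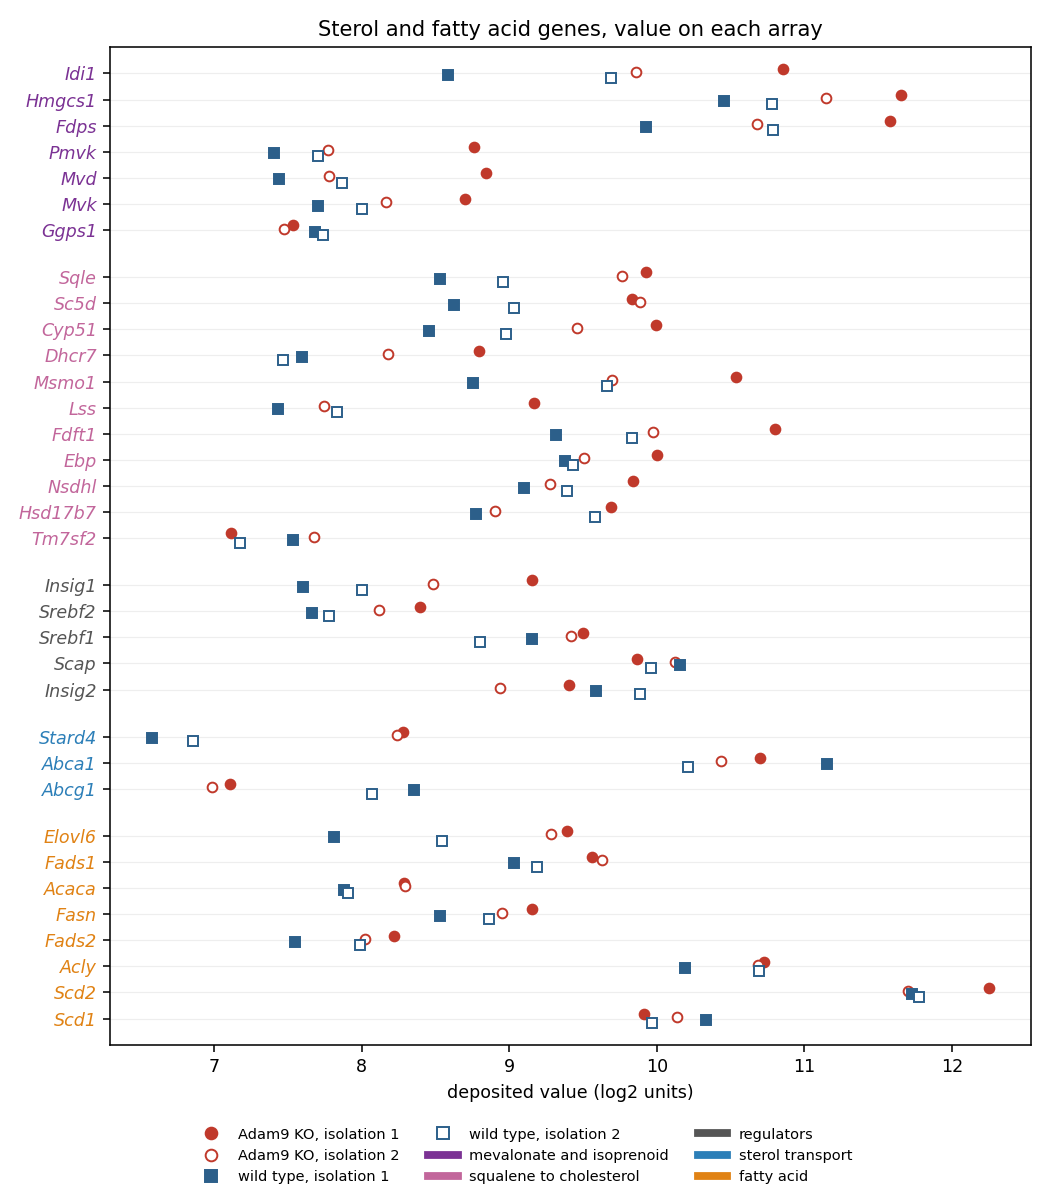
Deposited log2 value (x axis) of the 34 genes (y axis, grouped and coloured by role) on each array, with red circles for the 2 KO isolations and blue squares for the 2 WT isolations, filled for isolation 1 and open for isolation 2. In most genes of the sterol arm KO isolation 1 is the highest and WT isolation 1 the lowest. Stard4, Sqle, Sc5d and Elovl6 have both red circles well to the right of the blue squares.

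In the mevalonate and isoprenoid steps, 6 of 7 enzymes had positive differences, and the median was 0.71 (1.64-fold), or 0.31 without KO isolation 1. Hmgcs1, the HMG-CoA synthase at the entry of the route, had values of 11.66 and 11.15 in KO, against 10.46 and 10.78 in WT. The groups did not overlap, and the means of 11.40 ± 0.360 and 10.62 ± 0.231 (SD, n = 2 each) differed by 0.78 (SE 0.237, limma adjusted p = 0.384). The Hmgcs1 difference was 0.53 without KO isolation 1. Idi1, the isomerase of isopentenyl diphosphate, had 10.85 and 9.86 in KO, against 8.59 and 9.69 in WT. Its difference of 1.22 (SE 0.515) was the largest of the sterol arm, but KO isolation 2 stood only 0.17 above WT isolation 2. Without KO isolation 1 the difference was 0.72, and without WT isolation 1 it was 0.67. Fdps, which makes farnesyl diphosphate, had 11.58 and 10.68 in KO and 9.93 and 10.79 in WT, so that the groups overlapped.

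The kinases and the decarboxylase of mevalonate followed that order too. Mvk, mevalonate kinase, differed by 0.58 and Pmvk, phosphomevalonate kinase, by 0.71, both without overlap of the groups. Mvd, mevalonate diphosphate decarboxylase, had 8.85 and 7.78 in KO, against 7.44 and 7.87 in WT, a difference of 0.66 with overlap. Without KO isolation 1 these differences were 0.31 for Mvk, 0.22 for Pmvk and 0.12 for Mvd. Ggps1, which branches off to geranylgeranyl diphosphate for protein prenylation, was the 1 enzyme of the sterol arm with a negative difference. It stood at 7.53 and 7.47 in KO, against 7.69 and 7.74 in WT, and its difference of -0.21 was small but alike in all 4 pairs of arrays (-0.26 to -0.15). Its other probe sets differed by -0.21, -0.14 and -0.063. In those with -0.14 and -0.063, KO isolation 1 stood above both WT arrays.

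From squalene to cholesterol, all 11 enzymes had positive differences, from 0.042 to 1.10, the median being 0.82 (1.77-fold), or 0.40 without KO isolation 1. Sqle, squalene epoxidase, an early rate-limiting step of this stretch, had 9.93 and 9.76 in KO, against 8.53 and 8.96 in WT. Both KO values lay at least 0.80 above both WT values, and the difference of 1.10 (SE 0.197, limma adjusted p = 0.235) kept between 0.88 and 1.31 when any 1 array was left out. Sc5d, the lathosterol oxidase, had 9.84 and 9.89 in KO, against 8.63 and 9.03 in WT, a difference of 1.03 (SE 0.183, limma adjusted p = 0.234). Its KO arrays lay close together, at 9.86 ± 0.0356 (SD, n = 2). Cyp51, the demethylase of lanosterol, had 9.997 and 9.46 in KO, against 8.46 and 8.98 in WT, a difference of 1.01 (SE 0.281). Dhcr7, which reduces the immediate precursor of cholesterol, had 8.79 and 8.18 in KO, against 7.60 and 7.47 in WT, a difference of 0.96 (SE 0.244). In none of these 4 genes did the groups overlap. Without KO isolation 1, Cyp51 differed by 0.74 and Dhcr7 by 0.65. Without WT isolation 1, Cyp51 differed by 0.75 and Sc5d by 0.83.

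Other enzymes of that stretch also leaned on single arrays, most often on KO isolation 1. Lss, lanosterol synthase, had 9.17 and 7.74 in KO, against 7.43 and 7.83 in WT. Its difference of 0.82 was 0.11 without KO isolation 1, and the groups overlapped. Fdft1, squalene synthase, had 10.80 and 9.97 in KO, against 9.32 and 9.83 in WT, a difference of 0.81 that was 0.40 without KO isolation 1. Msmo1, the methylsterol oxidase, had 10.53 and 9.70 in KO, against 8.75 and 9.67 in WT, and KO isolation 2 stood 0.032 above WT isolation 2. Its difference of 0.91 was 0.45 without WT isolation 1 and 0.49 without KO isolation 1. Ebp, a sterol isomerase, differed by 0.35 without overlap (0.10 without KO isolation 1). Nsdhl and Hsd17b7, which act with Msmo1 in removing methyl groups, differed by 0.31 (0.033 without KO isolation 1) and 0.12, both with overlap. Hsd17b7 differed by -0.27 without KO isolation 1 and by -0.28 without WT isolation 1. The sterol reductase Tm7sf2 differed by 0.042 with overlap, and by 0.32 without KO isolation 1, its lowest array.

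**Figure D2:**
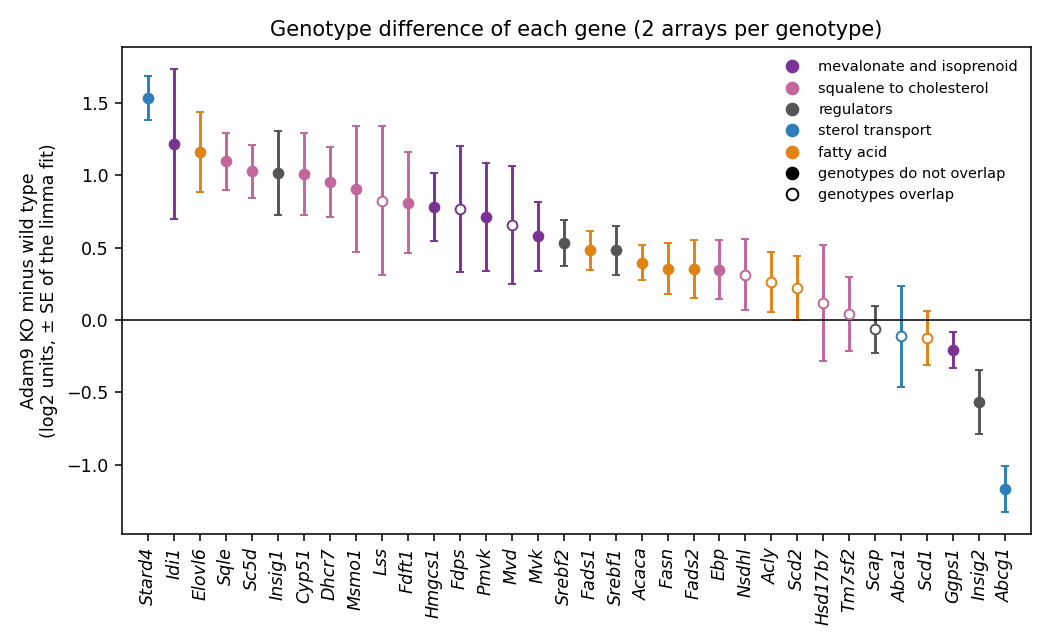
KO minus WT difference of each of the 34 genes in log2 units (y axis), with the SE of the limma fit as bars, in falling order and coloured by role. Filled points mark genes whose genotypes do not overlap, open points those that overlap. Stard4 is at the top with 1.54 and Abcg1 at the bottom with -1.16.

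Among the regulators, the paired INSIG genes stood on opposite sides. Insig1, itself an SREBP target that retains SCAP, had 9.16 and 8.49 in KO, against 7.60 and 8.003 in WT, a difference of 1.02 (SE 0.290, limma adjusted p = 0.367). Insig2, a paralog with the same retaining role, had 9.41 and 8.93 in KO, against 9.59 and 9.89 in WT, a difference of -0.57 (SE 0.224, limma adjusted p = 0.454). Neither pair of groups overlapped, and the further 2 probe sets of Insig2 differed by -0.44 and -0.61. Insig1 had 1 probe set. Without KO isolation 1 the Insig1 difference was 0.68, and without KO isolation 2 the Insig2 difference was -0.33.

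The genes of the SREBPs themselves were higher in KO. Srebf2, whose product mainly drives sterol genes, had 8.40 and 8.12 in KO, against 7.67 and 7.78 in WT, a difference of 0.53 (SE 0.157, limma adjusted p = 0.384). Srebf1, whose product mainly drives fatty acid genes, had 9.50 and 9.42 in KO, against 9.16 and 8.80 in WT, a difference of 0.48 (SE 0.172, limma adjusted p = 0.428). Its difference was 0.30 without WT isolation 2. Scap differed by -0.063 and its groups overlapped.

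The transport genes held both ends of the range. Stard4, a cytosolic carrier of sterol between membranes and an SREBP target, had 8.28 and 8.24 in KO, against 6.58 and 6.86 in WT. Its means of 8.26 ± 0.0281 and 6.72 ± 0.196 (SD, n = 2 each) differed by 1.54, or 2.90-fold (SE 0.153, limma adjusted p = 0.0864). All 3 of its probe sets differed by 1.46 to 1.67, and leaving out any 1 array gave 1.40 to 1.68, with an adjusted p of 0.0754 to 0.379 over all alternatives. Abcg1, which exports sterol to lipoproteins and is an LXR target, had 7.11 and 6.99 in KO, against 8.35 and 8.07 in WT. Its means of 7.05 ± 0.0862 and 8.21 ± 0.200 (SD, n = 2 each) differed by -1.16, 2.24-fold lower in KO (SE 0.159, limma adjusted p = 0.162), and by -1.31 to -1.02 with any 1 array left out. Its other, dimmer probe set differed by -0.50, and the mean of both was -0.83. Abca1, the other efflux pump and LXR target, had 10.70 and 10.44 in KO, against 11.15 and 10.21 in WT, and its groups overlapped. The WT array that was highest in Abca1 and Abcg1 was the one high in macrophage markers, and macrophages express both pumps. Without that array Abcg1 differed by -1.02 and Abca1 by 0.36, and the part of macrophages in these values was not tested.

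In the fatty acid arm 7 of 8 enzymes had positive differences, the median being 0.35 (1.28-fold). Elovl6, which elongates saturated and monounsaturated chains, had 9.39 and 9.28 in KO, against 7.81 and 8.54 in WT. Its difference of 1.16 (SE 0.277, limma adjusted p = 0.312) stood apart from the rest of the arm, and a further probe set gave 1.21. Fads1, a desaturase of polyunsaturated fatty acids, had 9.56 and 9.63 in KO, against 9.04 and 9.19 in WT, a difference of 0.48 (SE 0.133, limma adjusted p = 0.353). Acaca, the carboxylase that commits acetyl-CoA to fatty acid synthesis, had 8.29 on both KO arrays, against 7.88 and 7.91 in WT, a difference of 0.40 (SE 0.120, limma adjusted p = 0.384). These 3 genes had no overlap between the groups and did not lean on KO isolation 1, without which they differed by 1.11, 0.52 and 0.40. Without WT isolation 1 they differed by 0.79, 0.41 and 0.38, so the size in Elovl6 leaned on that array.

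The other fatty acid enzymes differed by less. Fasn, the fatty acid synthase, and Fads2, the partner desaturase of Fads1, differed by 0.36 and 0.35 without overlap, and by 0.19 and 0.13 without WT isolation 1. Acly, which supplies cytosolic acetyl-CoA, had 10.72 and 10.68 in KO, against 10.19 and 10.69 in WT, so that WT isolation 1 alone stood low. Scd2, a stearoyl-CoA desaturase, had 12.25 and 11.70 in KO, against 11.73 and 11.78 in WT, so that KO isolation 1 alone stood high. Scd1, another stearoyl-CoA desaturase, had 9.91 and 10.14 in KO, against 10.33 and 9.97 in WT, with overlap. Its second probe set went the other way, at 7.23 and 6.68 in KO, against 6.13 and 6.32 in WT, a difference of 0.73, so that the array gives no single direction for Scd1.

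**Figure D3:**
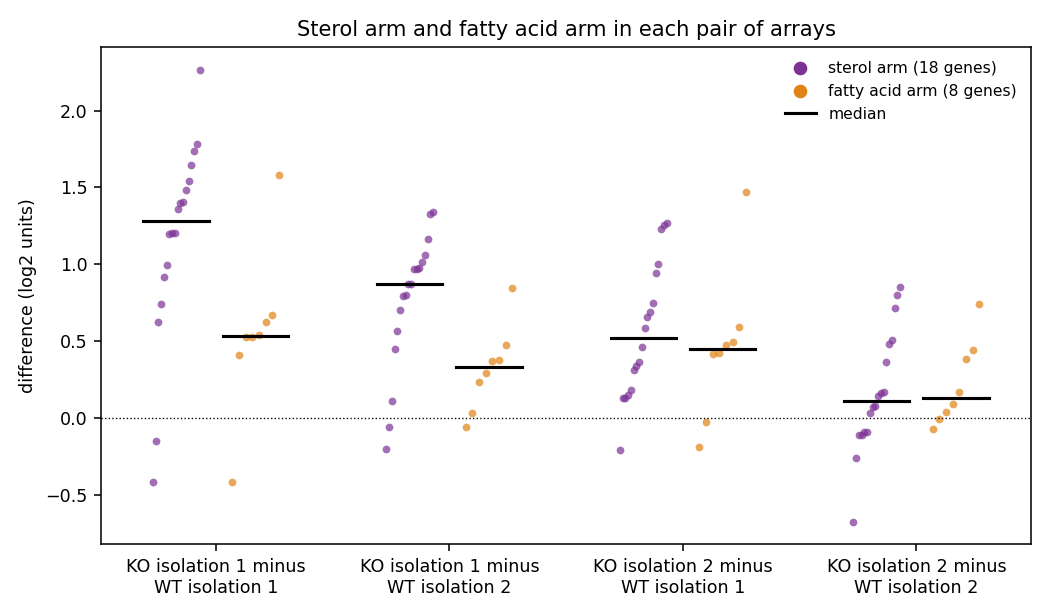
Difference in log2 units (y axis) of each gene of the sterol arm (18 genes, purple) and the fatty acid arm (8 genes, orange) in each of the 4 pairs of 1 KO and 1 WT array (x axis), with black bars for the medians. The sterol arm median runs from 1.28 in the pair of isolations 1 to 0.11 in the pair of isolations 2, and the fatty acid median from 0.53 to 0.13.

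The arms differed in size over all arrays but not in every pair. The median difference was 0.78 (1.71-fold) in the sterol arm and 0.35 (1.28-fold) in the fatty acid arm, against 0.0027 over all genes tested. Between KO isolation 1 and WT isolation 1 the medians were 1.28 for the sterol arm and 0.53 for the fatty acid arm. Between KO isolation 1 and WT isolation 2 they were 0.87 and 0.33, in the same order of arms. Between KO isolation 2 and WT isolation 1 they were 0.52 and 0.45. Between KO isolation 2 and WT isolation 2 they were 0.11 and 0.13, and 12 of 18 sterol genes and 6 of 8 fatty acid genes were positive. The gap between the arms was thus seen with KO isolation 1 and was small or absent with KO isolation 2. No test was made of the arms, because their members were chosen with results known.

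The isolations of a genotype were not alike in the sterol arm. KO isolation 1 exceeded KO isolation 2 in 16 of 18 sterol genes, by a median of 0.59, and WT isolation 2 exceeded WT isolation 1 in 16 of 18, by a median of 0.40. In the fatty acid arm these medians were 0.073 and 0.24. Over all genes tested the same differences had medians of 0.025 and -0.0013. Without KO isolation 1 the sterol median was 0.32 and without KO isolation 2 it was 1.19, while without WT isolation 1 it was 0.50. The fatty acid median was 0.19 without WT isolation 1 and 0.52 without WT isolation 2. WT isolation 1, the array low in sterol genes, was the one high in macrophage markers, whose part in the sterol values was not tested. In Stard4, Sqle, Sc5d and Dhcr7, named after their values were seen, KO isolation 2 too stood at least 0.58 above both WT arrays.

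**Figure D4:**
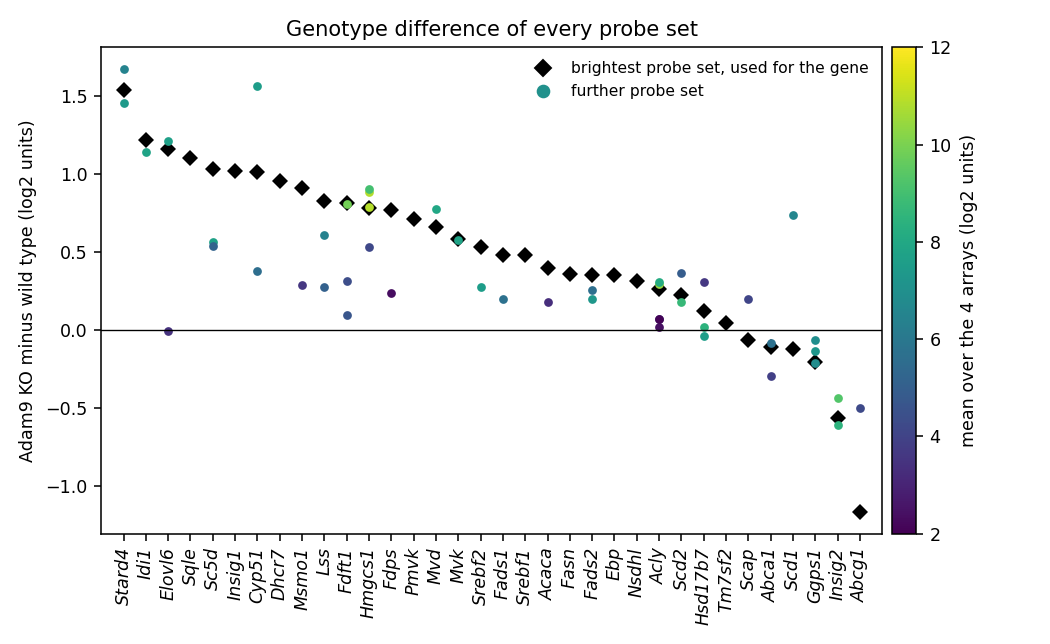
KO minus WT difference in log2 units (y axis) of every probe set of the 34 genes (x axis, in falling order), with a black diamond for the brightest probe set, used for the gene, and circles coloured by mean log2 value for the others. Above the dim filter 34 of 36 further probe sets lie on the same side of 0 as the one used, and Scd1 has probe sets on both sides.

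Further probe sets allowed the same genes to be read again from the same RNA. The 34 genes had 81 probe sets in all, and 25 of the genes had more than 1. From 21 genes, 36 further probe sets were above the dim filter. Of these, 34 had the sign of the probe set used. The 2 exceptions were 1 probe set each of Hsd17b7 (-0.041) and Scd1 (0.73). Cyp51 read 1.01, 1.56 and 0.38 from its 3 probe sets, and Sc5d read 1.03, 0.56 and 0.53, so the size depended on the probe set while the sign did not.

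Further genes of these pathways, from lists written down in the design, had no direction common to all 4 lists. None passed the limma test in any of the 4 lists, and the lists had 1, 4, 1 and 1 genes with an unadjusted p under 0.05. In list order, 5.56%, 4.76%, 3.57% and 0.0% of their genes were higher at that p, against 6.18% of all genes tested, and 0.0%, 14.3%, 0.0% and 5.0% were lower, against 5.24%. Of 18 further sterol and isoprenoid genes, 12 were positive, with a median of 0.027, and the 1 with an unadjusted p under 0.05 was Dhdds, a subunit of the enzyme for dolichol synthesis (0.45). The largest differences were those of Tmem97, a sterol-regulated membrane protein that binds NPC1 (0.81, and 0.31 without KO isolation 2), and Cyb5a, a cytochrome that feeds electrons to desaturases (-0.53, and -0.29 without WT isolation 2). Of 21 genes of sterol uptake, storage and efflux, 15 were negative, with a median of -0.13 (-0.30 without WT isolation 2), and both KO arrays lay below both WT arrays for 11 of the 21 (52.4%, against 22.0% of all genes tested). The largest differences there were those of the oxysterol hydroxylase Cyp7b1 (1.42, with overlap, and 0.44 without WT isolation 2) and the cholesteryl ester hydrolase Nceh1. Nceh1 had 7.23 and 7.26 in KO, against 7.81 and 7.83 in WT, a difference of -0.58. The other 3 with an unadjusted p under 0.05, named after their values were seen, belong to lysosomal release and uptake. Npc1, which exports cholesterol from lysosomes, had 7.75 and 7.37 in KO, against 8.15 and 8.02 in WT, and Lipa, the lysosomal acid lipase, had 9.04 and 8.88 in KO, against 9.78 and 9.29 in WT. Scarb1, a receptor for high-density lipoprotein, stood the other way, at 8.16 and 7.97 in KO, against 7.33 and 7.73 in WT. Macrophages also express Npc1 and Lipa, and WT isolation 1 was the highest array in both. Without that array Npc1 differed by -0.46 and Lipa by -0.33, and the part of macrophages in these values was not tested.

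The further fatty acid lists, of synthesis and glycerolipid genes and of oxidation genes, were mixed. Of 28 further fatty acid and glycerolipid genes, 16 were positive, with a median of 0.069. Acsl3, an acyl-CoA synthetase of lipid droplets, had 8.04 and 7.73 in KO, against 6.98 and 7.17 in WT, a difference of 0.81, and the malic enzyme Me1 differed by -0.45 (-0.29 without KO isolation 2 and -0.26 without WT isolation 2). Of 20 fatty acid oxidation genes, 14 were negative, with a median of -0.11, a sign that rested on KO isolation 2. KO isolation 1 was higher than WT isolation 1 and than WT isolation 2 in 16 of 20 each (medians 0.083 and 0.12), whereas KO isolation 2 was higher in 1 and 3 of 20 (medians -0.31 and -0.23). Without KO isolation 2 the median was 0.10. Pdk4, a kinase that shuts pyruvate out of the citrate cycle, had 7.41 and 7.37 in KO, against 8.53 and 8.99 in WT, a difference of -1.37 (SE 0.199, limma adjusted p = 0.182). Cpt1a, which admits fatty acids to mitochondria, differed by -0.25.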

How the data were processed

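The authors deposited values for each probe set on each array. Affymetrix Expression Console is named as their tool, per the submitters' processing notes, and neither its version, its summary method nor the base of the logarithm is stated there. A span of 1.70 to 14.37 and array medians of 4.83 to 4.87 led to reading these deposited values as log2. With another base the folds would change and the order would not. There were no detection calls, so folds against dim values depend on an unknown background.

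Of 45101 probe sets, 64 were controls and 34945 named 1 gene. Names were updated by Entrez identifier through RefSeq (GRCm38.p6). Each gene was read from its brightest probe set, and those whose mean lay over the 40th percentile of the probe sets (controls left out) were tested together with limma 3.58.1 in R 4.3.3 (KO minus WT, no block, Benjamini-Hochberg over 13271 genes, adjusted p under 0.05). SEs are those of the moderated fit. The procedure was tested on simulated data. The simulated noise was independent between probe sets, so it could not speak to effects shared within an array or isolation. The labels do not say whether isolations came from separate animals, so p-values measure only the spread between these arrays.

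The members and lists were chosen with earlier results of these data known. Every measured member is named. Array values are given by rule for members at an unadjusted p under 0.05 and for the 3 largest differences per role group, and those given for other members were chosen after they were seen. From each further list the 2 largest differences are named. The 12 alternatives took the isolation as a block, used other filters, normalizations and probe set rules, or a trended variance, and left out each array.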

Additional observations from a re-analysis of the deposited data

How the results depend on the processing

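No member passed the limma test under any of the 12 alternatives, and 13 had an unadjusted p under 0.05 in the reported fit. With 1 array left out, 126 of 136 differences of single members kept their direction, and under the other alternatives 270 of 272 did. The block, the filters and the trended variance leave each difference as it is, so they could not turn a sign. With the mean over probe sets, Scap differed by 0.068 and Scd1 by 0.30, both turned round. With 1 array left out, 6 members crossed 0: Hsd17b7 ranged from -0.28 to 0.52, Scap from -0.19 to 0.065, Scd2 from -0.052 to 0.50, Tm7sf2 from -0.24 to 0.32, Abca1 from -0.58 to 0.36 and Scd1 from -0.31 to 0.055. The sterol arm median ranged from 0.32 to 1.19, the fatty acid arm median from 0.19 to 0.52 and the gap between the arms from 0.066 to 0.74, against 0.42 as reported. The number of all genes called was 9 as reported, 0 with any 1 array left out and 2 with the isolation number as a replicate block. Adam9 lost its call under that block (adjusted p = 0.104). Isolations share only a number, and their deviations from the genotype means correlated at 0.116 over all genes tested and at -0.538 over the 34 members. The causes were not tested, but leaving out an array leaves fewer samples. With 2 arrays per genotype and no detection calls, signal over background is unknown.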
